A study of Mus musculus with 14 samples.

Results

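The p53 pathway genes and regulators of apoptosis examined here were 9 mouse genes: Trp53, Cdkn1a, Mdm2, Ccng1, Trp53inp1, Bax, Bbc3, Gdf15 and Bcl2. They were chosen by name as a listing of damage response genes, with earlier results of these data known. All 9 were found among the 34452 mouse genes of the count table. The question they address is whether genes of damage or of vector toxicity differed between eyes. The RNA came from the RPE (retinal pigment epithelium, the pigmented layer that supports the photoreceptors) of 7 mice aged 20 postnatal days. These were rd1 mice on the FVB/N background, which lack functional Pde6b, so that their rods die early. In every mouse 1 eye received AAV-Best1-GFP alone (control) and the other eye received AAV-Best1-Nrf2 together with AAV-Best1-GFP (Nrf2). Both vectors were injected under the retina soon after birth and use the RPE promoter Best1. The Nrf2 vector encodes human NFE2L2 and was packaged in another capsid (AAV8) than the GFP vector (7M8). By the study's methods, the Nrf2 eyes also received a higher total dose of vector than the control eyes. The upper end of that dose range passes the dose at which the study puts the onset of RPE toxicity, though it describes the GFP capsid as less toxic. Transgene and added vector therefore cannot be told apart in the Nrf2 eyes. All 14 eyes were rd1 and all had received a GFP vector and an injection, and no untreated or wild-type eye was compared.

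The transcription factor p53, encoded by Trp53 in the mouse, is regulated mainly through the stability of its protein rather than through its mRNA. Active p53 raises the transcription of genes that stop the cell cycle (Cdkn1a), that feed back on p53 itself (Mdm2, Ccng1), that signal to other tissues (Gdf15) or that promote death (Bax, Bbc3, Trp53inp1). Several of these genes, Cdkn1a and Gdf15 among them, are also known to respond to other stress pathways. RPE cells have left the cell cycle and seldom divide.

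The short stretches before the transcription start are shown first, because the decamer bound by a pair of p53 subunits can be read directly from them. RefSeq (GRCm38.p6) supplied windows of 250 bases before to 50 bases after the start for 8 of the 9 genes, 12 windows in all, and Trp53inp1 was not matched. The p53 decamer consensus, 10 bases that read as the same consensus on both strands, was present in 5 of these 12 windows. They belonged to 5 of the 8 genes (Trp53, Cdkn1a, Mdm2, Ccng1 and Bax). Over all 32851 windows of this kind 8.36% held the decamer. Each line below runs 5′ to 3′ from 250 to 31 bases before the start, with decamer matches in capitals. The windows are, in order, chr17:29090729-29090948 (plus strand), chr10:117710789-117711008 (minus strand), chr11:40755317-40755536 (minus strand), chr7:45466929-45467148 (minus strand) and chr11:69580109-69580328 (plus strand).
Cdkn1a: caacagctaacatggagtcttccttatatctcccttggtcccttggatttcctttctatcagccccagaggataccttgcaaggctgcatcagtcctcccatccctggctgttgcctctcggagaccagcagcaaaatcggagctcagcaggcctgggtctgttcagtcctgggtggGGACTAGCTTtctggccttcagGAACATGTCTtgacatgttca
Mdm2: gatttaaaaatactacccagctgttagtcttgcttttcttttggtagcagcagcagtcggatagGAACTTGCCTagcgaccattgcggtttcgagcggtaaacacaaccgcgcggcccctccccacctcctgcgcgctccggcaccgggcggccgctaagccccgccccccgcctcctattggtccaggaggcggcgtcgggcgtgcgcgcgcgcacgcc
Ccng1: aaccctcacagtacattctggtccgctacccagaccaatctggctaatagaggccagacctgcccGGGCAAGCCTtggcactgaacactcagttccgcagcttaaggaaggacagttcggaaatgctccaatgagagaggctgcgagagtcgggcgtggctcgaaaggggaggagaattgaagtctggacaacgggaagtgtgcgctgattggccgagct
Bax: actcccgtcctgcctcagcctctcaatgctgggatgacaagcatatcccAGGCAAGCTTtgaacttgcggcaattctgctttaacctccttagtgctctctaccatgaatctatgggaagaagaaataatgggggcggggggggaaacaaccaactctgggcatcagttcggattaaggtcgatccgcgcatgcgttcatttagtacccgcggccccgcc
Trp53: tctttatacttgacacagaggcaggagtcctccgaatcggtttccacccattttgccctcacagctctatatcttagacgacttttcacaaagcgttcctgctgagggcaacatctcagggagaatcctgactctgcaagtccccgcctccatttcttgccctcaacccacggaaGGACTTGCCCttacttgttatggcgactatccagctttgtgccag
The Cdkn1a window is that of the upstream of 2 starts. Its decamers begin 73 and 51 bases before the start, and only 24 of the 32851 windows (0.0731%) held 2 decamers with at most 13 bases between them. Only full matches were searched. The 10 bases directly after the second Cdkn1a decamer, tgacatgttc, miss the consensus only in their first letter and are not in capitals. The single decamers of Mdm2, Ccng1, Bax and Trp53 begin 186, 185, 201 and 75 bases before their starts. Gdf15, Bbc3 and Bcl2 had no match in these windows, which says nothing about sites elsewhere, such as the first introns. The core of the antioxidant response element bound by Nrf2, TGACNNNGC on either strand, was also searched and was present in 12.4% of all windows. It can share letters with the AP-1 motif TGANTCA. Of the 12 windows of the listed genes 2 held this core, that of Trp53 (position -122 from the start) and that of the downstream Cdkn1a start (position 28). A match is a description of letters, not a site shown to be used.

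Total counts per library ranged from 16548349 to 50543008. Levels are given as normalised CPM, that is counts per 1000000 of the TMM-scaled library total. The vector transcript separated the groups except for a pair of libraries. Human NFE2L2 was between 1147 and 9832 normalised CPM in Nrf2 eyes and between 0.989 and 1161 in control eyes. Nearly the same amount was held by the library labelled control 3 (1161) and that labelled Nrf2 4 (1147), and results are also given without mice 3 and 4. Nqo1, a quinone reductase and a well-known Nrf2 target, ranged from 83.9 to 193 normalised CPM in control eyes and from 195 to 723 in Nrf2 eyes. Its groups thus did not overlap, by a narrow margin, whereas those of some other Nrf2 targets, given below, did. RPE markers were at counts above 0 in all 14 libraries, with a summed level of 15318 to 28987 normalised CPM in control and 19299 to 32050 in Nrf2 eyes.

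Of the 9 genes, 4 rose in Nrf2 eyes (Cdkn1a, Mdm2, Ccng1 and Gdf15) and none fell, by the paired edgeR quasi-likelihood test with Benjamini-Hochberg adjustment over 16289 genes. At an unadjusted p under 0.05 there were 6, all higher, where 2955 of all genes (18.1%) reached that level, and DESeq2 and voom also called none lower. Over all genes tested, 559 (3.43%) passed, 2.94% higher and 0.491% lower in Nrf2 eyes. The median log2 fold change was 0.68 over the 9 genes and -0.04 over all genes. In bulk RNA, a change in the number of cells of a type and a change in RNA per cell cannot be told apart.

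**Figure D1:**
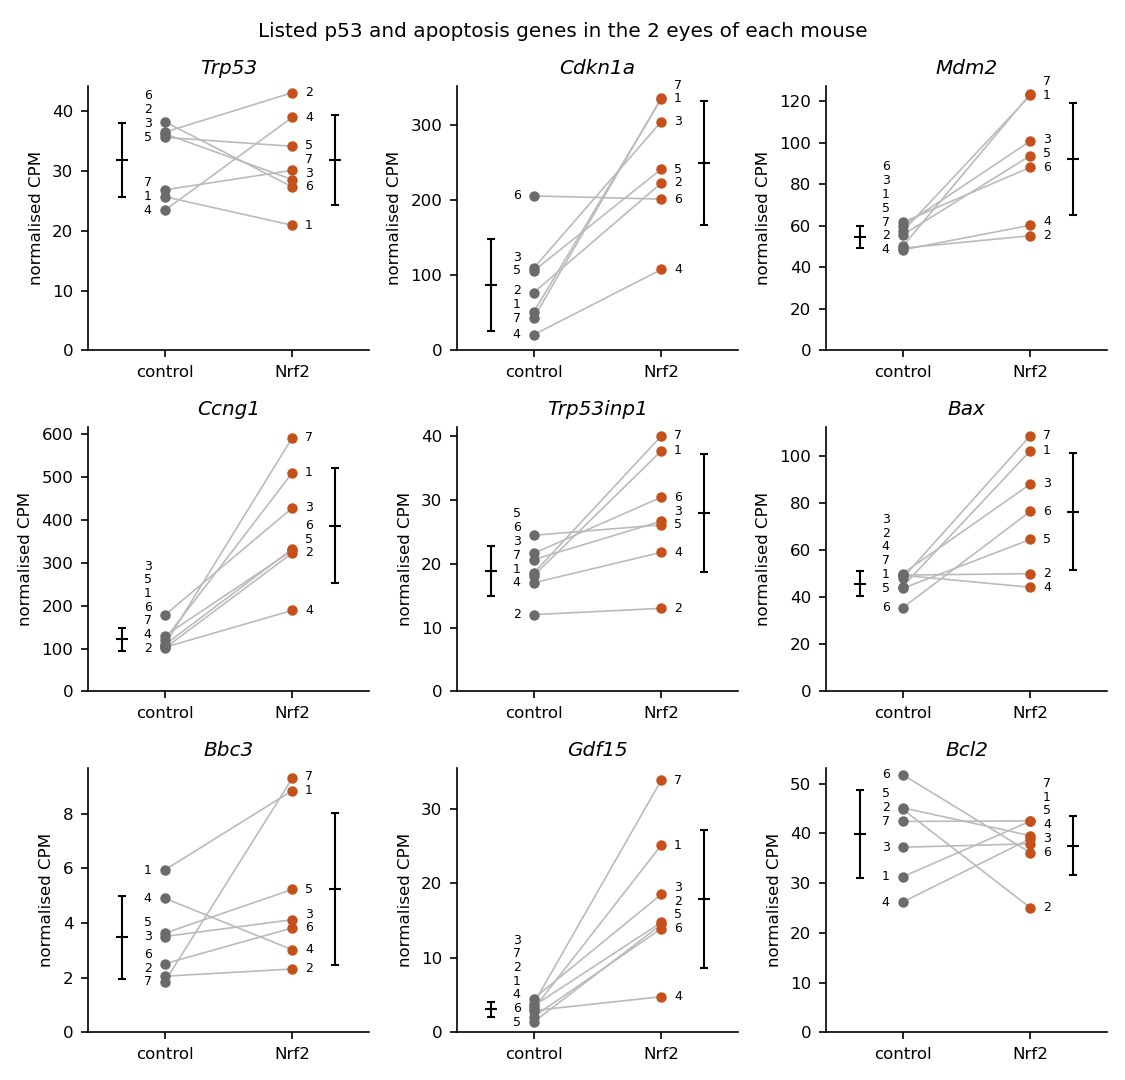
Normalised CPM of the 9 genes in the control and Nrf2 eye of each mouse, on axes that start at 0, with lines joining the eyes of a mouse and mouse numbers beside the points (spread upwards where they would overlap). Black bars give the mean ± SD of 7 eyes. Ccng1 and Gdf15 are the panels in which every Nrf2 eye sits above every control eye.

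Trp53 mRNA did not pass the test (ENSMUSG00000059552, chromosome 11, 69580359 to 69591873, plus strand, GRCm38). Its level in control eyes was lowest at 23.4, with a median of 35.7 and a highest value of 38.3 normalised CPM, and in Nrf2 eyes it was 20.9, 30.1 and 43.1. The groups overlapped throughout, and the Nrf2 eye was higher in 3 of 7 mice. The fitted difference of Trp53 was -0.01 on the log2 scale (SE 0.15, adjusted p = 0.99, edgeR). The sign of so small a value changed under 7 of the 16 alternative fits, within -0.13 to 0.07.

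Mdm2, the ubiquitin ligase that marks p53 for degradation and is itself a p53 target, rose (ENSMUSG00000020184, chromosome 10, 117688875 to 117710758, minus strand). Its levels in control eyes stood close together, at 48.4 (lowest), 55.6 (median) and 61.7 (highest) normalised CPM. In Nrf2 eyes they spread from 55.2 over a median of 93.8 to 124. The Nrf2 eye was higher in 7 of 7 mice, although Nrf2 2 and Nrf2 4, at 55.2 and 60.3, remained within the control range. The means were 54.6 ± 5.36 and 92.1 ± 27.1 (SD, n = 7). The paired difference came to 0.70 on the log2 scale (SE 0.15, adjusted p = 0.0402, edgeR), a 1.63-fold difference. This call lies close to the threshold. It was lost without mice 3 and 4 (log2 fold change 0.77, adjusted p = 0.0623, edgeR) and when mouse 1, 3, 5, 6 or 7 alone was left out, where the adjusted p was 0.136, 0.124, 0.109, 0.0685 and 0.123 in turn.

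Cdkn1a encodes p21, the inhibitor of cyclin-dependent kinases by which p53 stops division, and it rose with a large spread between mice (ENSMUSG00000023067, chromosome 17, 29090976 to 29100727, plus strand). Control eyes ranged from 20.8 over a median of 77.0 to 206 normalised CPM. Nrf2 eyes ranged from 108 over a median of 242 to 337. The means were 87.6 ± 61.5 in control and 250.3 ± 82.8 in Nrf2 eyes (SD, n = 7). In mouse 6 the eyes were alike (206 in control and 202 in Nrf2), and in the other 6 mice the Nrf2 eye was higher, by 1.19 to 2.96 on the log2 scale. Control 6 was the highest control library, and Nrf2 4 was the lowest Nrf2 library. Among control eyes, control 6 also had the highest sum of surface epithelium markers (keratins, Sfn and Trp63), at 61867 normalised CPM. Control 4, the lowest for Cdkn1a, had the lowest sum, at 1851. Among Nrf2 eyes this order was not seen, as Nrf2 7 had the lowest sum (2521) and the highest Cdkn1a level. The part of these markers in the spread of Cdkn1a was not tested. The fitted log2 fold change was 1.76 (SE 0.35, adjusted p = 0.0342, edgeR), a 3.39-fold difference. The size changed little without mice 3 and 4, at 1.69, but the adjusted p was then 0.0849. The call was likewise lost when mouse 1, 2, 3, 5 or 7 alone was left out (adjusted p = 0.116, 0.0689, 0.0939, 0.0798 and 0.107 in turn, edgeR).

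Ccng1 (cyclin G1, a p53 target that recruits a phosphatase to Mdm2) rose in every mouse and was the member with the smallest adjusted p (ENSMUSG00000020326, chromosome 11, 40748552 to 40755311, minus strand). It was lowest at 101, with a median of 108 and a highest value of 178 normalised CPM, in control eyes. In Nrf2 eyes the corresponding values were 189, 333 and 592. The groups did not overlap. Over all genes tested, 1.22% had all 7 Nrf2 eyes above all 7 control eyes. The means were 121 ± 27.0 and 387 ± 135 (SD, n = 7), the log2 fold change was 1.62 (SE 0.19, adjusted p = 0.00936, edgeR), and the difference was 3.07-fold. The control library nearest to the Nrf2 group was control 3 (178), and the Nrf2 library nearest to the control group was Nrf2 4 (189). Without mice 3 and 4 the log2 fold change was 1.83 (adjusted p = 0.00524, edgeR). Ccng1 passed the threshold of 0.05 under all 16 alternative fits.

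Gdf15 had the largest fold change of the 9 (ENSMUSG00000038508, chromosome 8, 70629393 to 70632456, minus strand). It encodes a secreted stress cytokine of the TGF-beta superfamily. Its level in control eyes was low, from 1.39 over a median of 3.14 to 4.53 normalised CPM, which corresponds to 45 to 163 counts. In Nrf2 eyes it was 4.79 at the lowest, 14.8 at the median and 33.8 at the highest, or 119 to 1624 counts. Every Nrf2 eye was above every control eye, but Nrf2 4 (4.79) exceeded control 3 (4.53) by little, and the other 6 Nrf2 eyes started at 13.9. The means were 3.07 ± 1.06 and 17.9 ± 9.27 (SD, n = 7). Gdf15 was thus higher by 2.45 on the log2 scale (SE 0.34, adjusted p = 0.0110, edgeR), a 5.46-fold difference, and it was 2.86 without mice 3 and 4 (adjusted p = 0.00382, edgeR). Gdf15 passed the threshold of 0.05 under all 16 alternative fits, with its highest adjusted p, 0.0494, when mouse 7 was left out, but not the stricter threshold of 0.01.

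**Figure D2:**
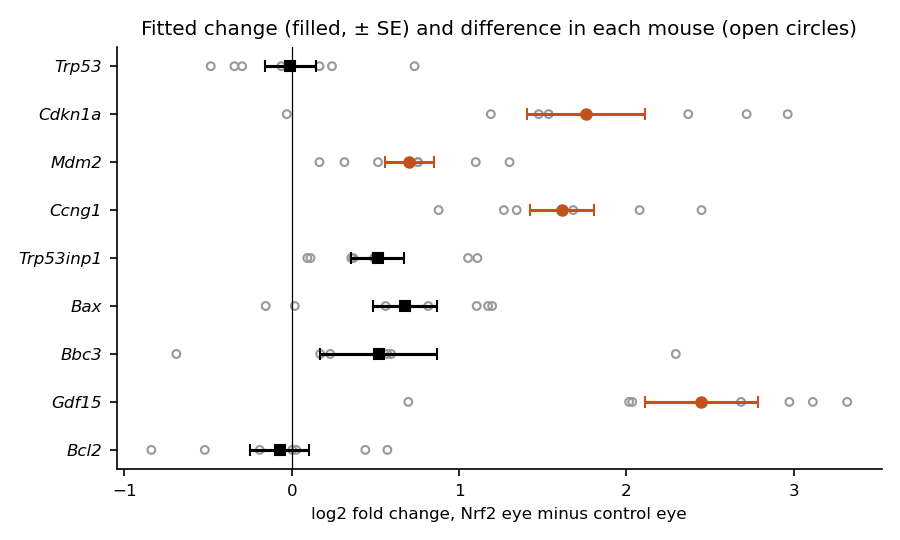
Log2 fold change (Nrf2 eye minus control eye) of the 9 genes from the paired fit, with bars of ± 1 SE, and the difference in each of the 7 mice as open circles. Orange circles mark the 4 genes past the threshold and black squares the 5 that were not; only Cdkn1a among the 4 has a mouse at 0 (mouse 6, -0.03).

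The genes that act most directly in cell death had smaller differences, none of which passed. Bax encodes the protein that permeabilises the outer mitochondrial membrane (ENSMUSG00000003873, chromosome 7, 45461697 to 45466898, minus strand). It was 35.6, 48.2 and 50.1 normalised CPM at the lowest, median and highest control eye and 44.3, 76.6 and 109 in Nrf2 eyes. Of the Nrf2 libraries, 5 stood above all controls, whereas Nrf2 2 (50.1) and Nrf2 4 (44.3) did not. For Bax the log2 fold change was 0.68 (SE 0.19, adjusted p = 0.104, edgeR), and the Nrf2 eye was higher in 6 of 7 mice. Bax passed without mouse 4 (0.82, adjusted p = 0.0208, edgeR), without the replicate block (0.74, adjusted p = 0.0261, edgeR), in DESeq2 (0.69, adjusted p = 0.0173) and in voom with quality weights (0.81, adjusted p = 0.00608, limma). Its exons share 192 of 1576 bases with Gm45808 on the same strand, so its counts may include reads of that gene.

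Trp53inp1 encodes a nuclear and autophagic cofactor of p53 (ENSMUSG00000028211, chromosome 4, 11156431 to 11174379, plus strand). Control eyes gave 12.0, 18.5 and 24.4 normalised CPM at the lowest, median and highest, and Nrf2 eyes 13, 26.6 and 40.0. The Nrf2 eye was higher in 7 of 7 mice, by 0.09 to 1.11 on the log2 scale, while the groups overlapped. The log2 fold change was 0.51 (SE 0.16, adjusted p = 0.135, edgeR), and the gene passed in DESeq2 (adjusted p = 0.0298) and voom (adjusted p = 0.0378, limma).

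Bbc3 encodes Puma, a BH3-only protein induced by p53 that triggers mitochondrial apoptosis (ENSMUSG00000002083, chromosome 7, 16308393 to 16318205, plus strand). It was expressed at a low level, from 1.84 over 3.50 to 5.93 normalised CPM in control eyes and from 2.32 over 4.12 to 9.29 in Nrf2 eyes. The eyes of mouse 7 differed most (1.84 and 9.29), and mouse 4 went the other way (4.91 and 3.02). The log2 fold change was 0.52 (SE 0.35, adjusted p = 0.464, edgeR), and no alternative brought it past the threshold.

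Bcl2, the founding inhibitor of mitochondrial apoptosis, did not pass either (ENSMUSG00000057329, chromosome 1, 106538178 to 106714274, minus strand). Its levels were 26.2, 42.4 and 51.8 normalised CPM at the lowest, median and highest control eye and 25, 38.9 and 42.5 in Nrf2 eyes. The Nrf2 eye was higher in 4 mice and lower in 3. The log2 fold change was -0.07 (SE 0.18, adjusted p = 0.869, edgeR).

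Scaled by exonic length, the order of the 9 genes in control eyes was Ccng1 (34.5 ± 7.67 normalised CPM per kb, SD, n = 7), Bax (29.1 ± 3.29), Cdkn1a (24.7 ± 17.3), Mdm2 (10.7 ± 1.05), Trp53 (7.87 ± 1.53), Bcl2 (4.35 ± 0.97), Trp53inp1 (2.92 ± 0.61), Gdf15 (1.66 ± 0.57) and Bbc3 (1.64 ± 0.71). Neighbours whose SDs did not overlap were Mdm2 and Trp53, Trp53 and Bcl2, and Trp53inp1 and Gdf15, whereas all other neighbours in this order overlapped. In Nrf2 eyes Ccng1 (110.1 ± 38.3) and Cdkn1a (70.5 ± 23.3) stood first, and Gdf15 (9.67 ± 5.01) stood above Trp53 (7.89 ± 1.85), again with overlapping SDs.

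The levels of the 4 genes that rose were set beside the vector transcript, as a description. Among Nrf2 eyes the vector transcript was highest in mice 1, 7 and 3 (9832, 9002 and 7772 normalised CPM), between 4907 and 5632 in mice 2, 5 and 6, and lowest in mouse 4 (1147). Ccng1 was highest in the same 3 mice (511, 592 and 428), between 323 and 333 in mice 2, 5 and 6, and lowest in mouse 4 (189). Gdf15 followed the same grouping, with 25.1, 33.8 and 18.5 in mice 1, 7 and 3, and 13.9 to 14.8 in mice 2, 5 and 6. Cdkn1a was highest in mice 7, 1 and 3 as well (337, 335 and 305), and so was Mdm2 (124, 123 and 101), but Nrf2 2 was the lowest Nrf2 library for Mdm2 at 55.2. These genes share their libraries and scaling with the vector transcript. The library labelled control 3 stood next to the library labelled Nrf2 4 for Cdkn1a (110 and 108), Mdm2 (59.8 and 60.3), Ccng1 (178 and 189) and Gdf15 (4.53 and 4.79). The transgene product and the added vector cannot be told apart in this pattern.

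**Figure D3:**
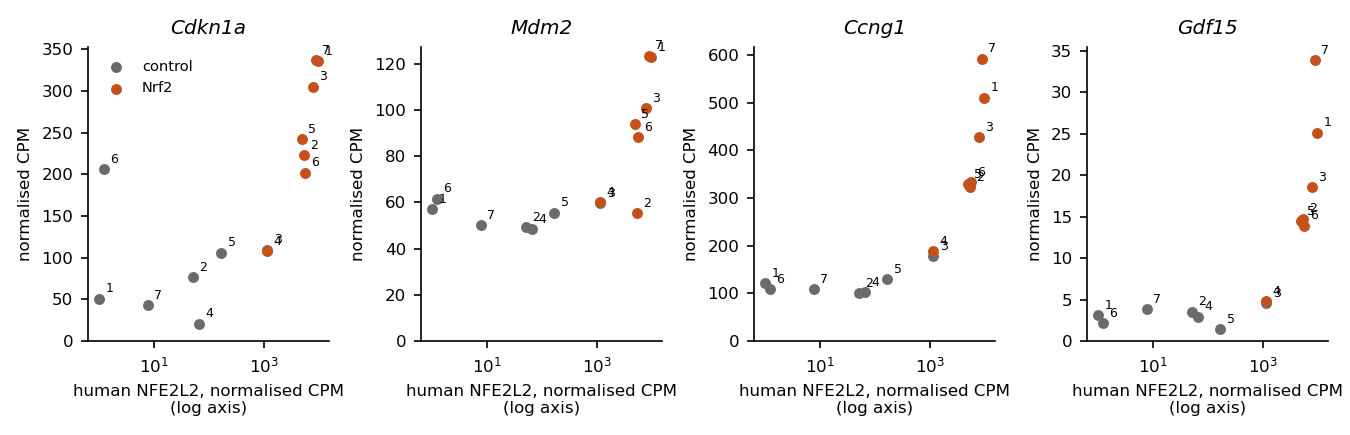
Normalised CPM of the 4 genes that rose against that of the vector transcript human NFE2L2 (log axis) in 7 control (grey) and 7 Nrf2 (orange) libraries, labelled by mouse. Control 3 and Nrf2 4, at 1161 and 1147 of vector transcript, lie almost on each other in every panel, and the control eye of mouse 6 stands out for Cdkn1a at 206.

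A wider list of 32 p53 target genes was read from the same fit. It was chosen from knowledge of the pathway but with earlier results of these data known, so it is no independent support for the 9 genes. Of these, 6 rose, none fell and 26 did not pass, where 2.94% of all genes tested rose. A log2 fold change above 0 was found for 23 of the 32, where 7361 of all 16289 genes tested had one. The list median was 0.33 against -0.04 over all genes. The 6 were Ddit4l, an inhibitor of mTORC1 signalling (2.55, SE 0.34, adjusted p = 0.0104, edgeR), Sulf2, an extracellular heparan sulfatase (2.20, SE 0.32, adjusted p = 0.0128), the stress kinase Plk3 (2.05, SE 0.31, adjusted p = 0.0135), Pidd1, the scaffold that activates caspase-2 (1.91, SE 0.29, adjusted p = 0.0136), the apoptosis-enhancing nuclease Aen (1.69, SE 0.23, adjusted p = 0.0109) and the death receptor Fas (1.55, SE 0.21, adjusted p = 0.0110). All 6 were higher in the Nrf2 eye of 7 of 7 mice. Without mice 3 and 4, when 4.5% of genes passed, these 6 passed again together with Zmat3.

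The levels behind these calls ran as follows. Aen was 23.4 to 36.7 normalised CPM in control and 37.2 to 129 in Nrf2 eyes, and Fas was 2.29 to 6.20 and 7.69 to 18.5, both without overlap. Ddit4l, at 4.53 to 15 and 19.7 to 99.5, did not overlap either. Over all genes tested, 1.22% had all 7 Nrf2 eyes above all 7 control eyes. Sulf2 (13.4 to 57.4 and 55.2 to 207), Plk3 (5.25 to 27.0 and 13.4 to 58.2) and Pidd1 (1.45 to 5.92 and 5.64 to 20.2) each had 6 Nrf2 libraries above all controls.

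Other members of the list, named after their values were seen, lay near the threshold or had values below 0. Eda2r, an ectodysplasin receptor, Psrc1 and Zmat3 lay just beyond the threshold (log2 fold change 2.64, 1.30 and 0.83, adjusted p = 0.0542, 0.0534 and 0.0556, edgeR). Btg2, an antiproliferative gene, and Ddb2, which recognises ultraviolet damage in DNA, pointed the other way. Btg2 was 27.8 to 84.9 normalised CPM in control and 18.1 to 27.1 in Nrf2 eyes, and Ddb2 was 10.4 to 12.7 and 5.53 to 10.1. For both genes all 7 Nrf2 eyes lay below all 7 control eyes, by a narrow margin. Neither gene passed (log2 fold change -0.77 and -0.61, adjusted p = 0.104 and 0.105, edgeR), although DESeq2 and voom called both lower. Perp, an epithelial junction gene, had the most negative value of the list (-0.82, SE 0.45, adjusted p = 0.375, edgeR). The DNA damage genes Gadd45a (0.17, adjusted p = 0.694), Xpc (0.13, adjusted p = 0.66) and Polk (-0.12, adjusted p = 0.727) and the BH3-only gene Pmaip1 (0.33, adjusted p = 0.83) did not pass. The decamer was found in windows of 2 of the 6 genes that rose, Aen and Ddit4l. These were 3 of 8 windows, but the 2 Aen windows overlap and hold the same decamer.

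**Figure D4:**
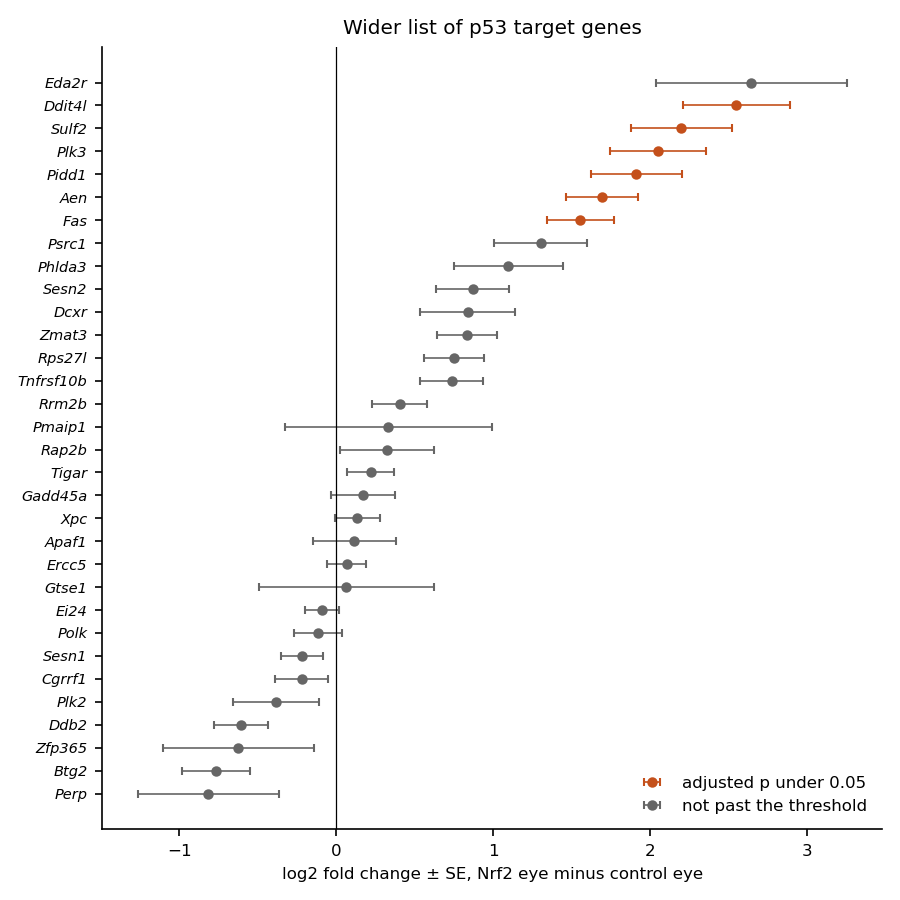
Log2 fold change ± 1 SE (Nrf2 eye minus control eye) of the 32 genes of the wider p53 target list, ordered by value. Orange points are the 6 genes past the threshold, which lie between 1.55 and 2.55, and grey points the other 26, which lie on both sides of 0.

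The upstream regulators of p53 did not pass the edgeR test in any of 14 members tested of 15 (median log2 fold change -0.29), while 2 had an unadjusted p under 0.05, DESeq2 called 2 and voom 3. For all 16289 genes tested these counts were 2955 (18.1%), 1943 and 2590, which are also the background for the lists and markers below. The 2 with the highest levels were the kinase Hipk2 (170 ± 31.7 normalised CPM in control and 174 ± 36.2 in Nrf2 eyes, SD, n = 7, log2 fold change 0.04) and the ubiquitin ligase Rchy1 (74.2 ± 6.91 and 88.7 ± 12.2, log2 fold change 0.25, adjusted p = 0.28, edgeR). Cdkn2a, whose product Arf restrains Mdm2, was too low to be tested. A pseudogene of Trp53 is a row of its own in the table and was not counted as Trp53.

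The rest of the BCL2 family and the genes of apoptosis execution had no member past the threshold in edgeR on all 7 mice. Among 12 tested members of the rest of the BCL2 family, 6 values were above and 6 below 0, 2 had an unadjusted p under 0.05, DESeq2 called 2 and voom called 0. Without mice 3 and 4, Bok passed, lower in Nrf2 eyes. Mcl1 (201 ± 67.5 and 158 ± 41.2 normalised CPM, log2 fold change -0.34) and Bcl2l1 (150.4 ± 18.9 and 165 ± 30.3, log2 fold change 0.12), which both protect mitochondria, had the highest levels. Bcl2a1a, Bcl2a1d, Bcl2l10 and Hrk were too low to be tested. Genes of apoptosis execution, 20 in all, had a median log2 fold change of -0.11. Of these, 5 had an unadjusted p under 0.05, where 18.1% of all genes did. DESeq2 and voom each called 3 of the 20, where they called 1943 and 2590 of all 16289 genes. Cycs (cytochrome c) was 73.6 ± 10.1 and 83.5 ± 6.17, and Diablo (Smac, an antagonist of caspase inhibitors) was 74.3 ± 4.30 and 77.5 ± 3.28 normalised CPM (SD, n = 7). The smallest adjusted p of that list, 0.0886, belonged to the effector caspase Casp6 (log2 fold change 0.43), named after its value was seen.

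Of 10 tested death receptor genes of 11 listed, 2 rose, where 2.94% of all genes did. DESeq2 and voom each called 4, all higher (Eda2r and Tnfrsf10b in addition). Besides Fas, the TNF receptor Tnfrsf1a was 61.4 to 106 normalised CPM in control and 94.1 to 189 in Nrf2 eyes (log2 fold change 0.80, SE 0.15, adjusted p = 0.0268, edgeR) and was higher in 7 of 7 mice. It did not pass without mice 3 and 4, when Fas was the one called. Fasl, the ligand of Fas, was at 0 counts in all control libraries and too low to be tested. Of necroptosis and pyroptosis genes 8 were tested. All 8 had values below 0, where 7361 of all 16289 genes tested had values above 0. None of the 8 passed in edgeR, DESeq2 or voom, and 0 had an unadjusted p under 0.05 in edgeR, but Il18 passed, lower, without mice 3 and 4. The most abundant were Pycard, the inflammasome adaptor (75.8 ± 46.6 and 45.0 ± 28.0 normalised CPM, log2 fold change -0.80, adjusted p = 0.441, edgeR), and the cytokine Il18 (60.5 ± 14 and 46.1 ± 9.23, log2 fold change -0.39, adjusted p = 0.347, edgeR).

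Relatives of Cdkn1a were examined next. None of 5 tested CDK inhibitor genes passed in edgeR, with 1 at an unadjusted p under 0.05, and DESeq2 called 1 and voom 2, Cdkn2b among them in both. Of all 16289 genes, 18.1% reached that unadjusted level, and DESeq2 called 1943 and voom 2590. Cdkn1c (p57) was 59.0 ± 16.5 and 68.5 ± 15.2 normalised CPM, with a log2 fold change of 0.23, and Cdkn2b (p15) was 29.0 ± 17.8 and 61.8 ± 22.4, with one of 1.39 (SE 0.45, adjusted p = 0.154, edgeR). All 10 genes of cycling cells had values below 0, where 7361 of all 16289 genes tested had values above 0. The median log2 fold change of these 10 genes was -0.62, and none passed in edgeR, DESeq2 or voom, with 0 at an unadjusted p under 0.05 in edgeR. Among them Cdk1 was 17.9 ± 3.48 and 13.4 ± 4.36 and Top2a 16.1 ± 9.41 and 12.5 ± 8.31 normalised CPM (SD, n = 7). Surface epithelium markers were also lower in sum in the Nrf2 eye of 6 of 7 mice. Their part in the values of the cycling genes was not tested. Gdf15 is also a target of the amino acid stress response, of which none of 11 genes passed in edgeR, with 4 at an unadjusted p under 0.05 and 2 called by DESeq2 and by voom (Chac1 lower and Sesn2 higher). Chac1 also passed, lower, in edgeR without mice 3 and 4. Its central factor Atf4 was 77.5 ± 6.49 and 63.6 ± 9.53 (log2 fold change -0.30, adjusted p = 0.24, edgeR), and Vldlr was 67.2 ± 18.1 and 74.7 ± 15.7.

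**Figure D5:**
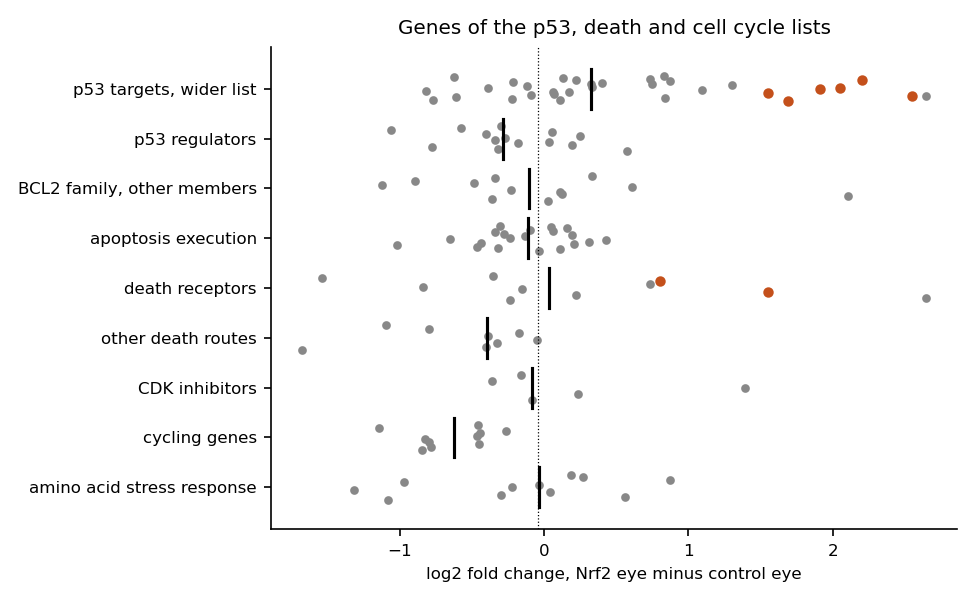
Log2 fold changes (Nrf2 eye minus control eye) of the tested genes of 9 lists, with genes past the threshold in orange, list medians as black bars and the median of all genes (-0.04) as a dotted line. Orange points appear only in the lists of p53 targets (6) and death receptors (2, of which Fas is in both).

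For comparison with the transgene's own pathway, all 6 Nrf2 target genes used as a check of the labels rose: Srxn1, Hmox1, Gclc, Txnrd1, Gclm and Nqo1, with log2 fold changes of 4.68, 4.30, 4.16, 3.53, 2.99 and 2.05. The fitted log2 fold change of Gdf15 (2.45) lay within that range, and those of Cdkn1a, Ccng1 and Mdm2 lay below it. Among the 6 Nrf2 targets, Nqo1 and Txnrd1 had groups that did not overlap. Gclc, Gclm, Hmox1 and Srxn1 each had 6 Nrf2 eyes above all controls, and their groups overlapped. The highest control eye and the lowest Nrf2 eye were 576 and 572 normalised CPM for Gclc and 468 and 440 for Srxn1.

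The genes whose profiles over the 14 libraries were most like those of the 4 genes that rose were picked by the smallest root mean square difference of centred log2 values, among 12009 genes with a mean of at least 5 normalised CPM. For Cdkn1a these were Htatip2, Pidd1 and G6pdx (0.29, 0.34 and 0.38, where the profile of Cdkn1a itself has a root mean square of 1.18). For Mdm2 they were Keap1, Eif2ak4 and Spata6 (0.12, 0.13 and 0.14, against 0.47 for Mdm2). For Ccng1 they were Fth1, Cbr1 and Pgrmc1 (0.18, 0.20 and 0.20, against 0.90). For Gdf15 they were Pcyt1b, Ctsd and Mt3 (0.27, 0.30 and 0.34, against 1.385).

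Markers of other cell types also differed between the libraries. Rod and cone markers, 8 of each, were lower in sum in the Nrf2 eye of 7 of 7 mice: 21.7 to 456 normalised CPM in control and 7.11 to 87.3 in Nrf2 eyes for rods, and 41.2 to 920.2 and 18.4 to 96.4 for cones. Of these the cone genes Gnat2 and Opn1sw passed in edgeR, DESeq2 called 4 rod and 6 cone genes and voom 5 and 8, all lower, and Nr2e3 was the one at 0 counts in some library. Surface epithelium markers (keratins, Sfn and Trp63) summed to 1851 to 61867 in control and 2521 to 26328 in Nrf2 eyes, lower in 6 of 7 mice. None of these 8 passed in edgeR, with 1 at an unadjusted p under 0.05, while DESeq2 called 3 and voom 1, and Krt13 and Krt14 passed, lower, without mice 3 and 4. The 10 macrophage and microglia markers summed to 126 to 390 and 156 to 641, higher in 4 of 7 mice, a sum in which Csf1r weighed most in control eyes (174 in control). Taken singly, 9 of the 10 had log2 fold changes above 0, with a median of 1.10, and C1qa, C1qb, Cd68, Lyz2, Tyrobp and Fcer1g were each higher in 6 of 7 mice, while Csf1r was lower (-0.76). None was at 0, none passed in edgeR, 2 had an unadjusted p under 0.05, DESeq2 called 3 higher and 1 lower, and voom called 0. Their part in the differences of the p53 targets was not tested. Of the 10 RPE markers, 5 had values above and 5 below 0. Rpe65, the visual cycle isomerase, passed in edgeR, and it fell by 2.17 on the log2 scale (SE 0.37, adjusted p = 0.0199, edgeR). Ttr, the carrier transthyretin, was higher in 6 of 7 mice (log2 fold change 1.58, adjusted p = 0.104, edgeR) and Tyr, the melanin enzyme tyrosinase, in 7 of 7 (0.52, adjusted p = 0.16, edgeR). DESeq2 called Rpe65 lower and Ttr and Tyr higher, and voom called Rpe65 lower and Ttr higher.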

How the data were processed

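RNA-seq libraries of RPE from 14 eyes of 7 mice were read as groups and mice from the labels. The study's methods count fewer paired replicates at this age than the 7 of the labels, and do not say which libraries were left out. Per the labels and the study's methods, RNA was amplified with a low-input kit that does not mark strand, sequenced in separate runs (library to run not given in the sources used here), and quantified on mm10 with Ensembl annotation. The deposited table holds estimated counts, which the authors appear to have taken from Salmon (version 0.9.1 in the submitters' processing notes) and which are whole numbers here. No normalization was applied before deposit, and all 14 columns were used.

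Genes were named with GENCODE M21 (GRCm38), matching 34401 of 34452 rows. The vector row was kept in library totals and TMM scaling and never counted as a mouse gene. Differences were tested in edgeR 4.0.16 (R 4.3.3) by quasi-likelihood, in a model of treatment plus mouse, after filterByExpr by group (minimum count 10) and with Benjamini-Hochberg adjustment over 16289 genes, threshold 0.05. SEs were derived from the F statistic. Differences within a mouse are of log2 normalised CPM (prior count 2). Mouse numbers mark the animal, so eyes are paired by design. The correlation of deviations between the eyes of mice 1 to 7, over 12010 genes, was 0.03, 0.07, 0.09, -0.44, 0.40, -0.26 and 0.19. The p-values measure the spread between these mice. The scripts were tested on simulated data.

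Alternatives were no block for mouse, RLE or upper-quartile scaling, DESeq2 1.42.0, voom with quality weights in limma 3.58.1, no filter, a mean of at least 10 counts, a threshold of 0.01, each mouse left out, mice 3 and 4 left out and, chosen after seeing the data, the vector row left out before scaling. The members and lists were chosen with earlier results of these data known. Genes named are the 9, the vector transcript and Nqo1, list members past the threshold, the 2 with the highest mean level of each list without one, the 3 nearest profiles of each member past the threshold, and cell type markers; other genes are named as chosen after their values were seen. Promoter windows are from RefSeq (GRCm38.p6).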

Additional observations from a re-analysis of the deposited data

Results flagged for a closer look

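Within groups of 7 eyes, 3 of 20 sets of values (9 genes and the vector transcript in each group) held a library set apart from the others by a gap larger than Dixon's 95% limit, where chance gives about 1 in 20. In control eyes, control 3 stood above the rest for the vector transcript, at 1161 normalised CPM, and for Ccng1, at 178 normalised CPM. In Nrf2 eyes, Nrf2 2 stood below the rest for Bcl2, at 25 normalised CPM.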

How the results depend on the processing

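At the threshold of 0.05, Ccng1 and Gdf15 passed under all 16 alternative fits, and Trp53, Bbc3 and Bcl2 under none. Cdkn1a passed under 10 and Mdm2 under 8, both with values above 0 under all 16. Mdm2 was also lost with no filter (adjusted p = 0.0901, edgeR) and with the vector row left out before scaling (adjusted p = 0.0575, edgeR), when 441 genes passed. Of the 9 genes, 4 passed in the fit reported, 2 without mice 3 and 4, 1 (Ccng1) at a threshold of 0.01, and from 2 to 5 with each mouse left out in turn. DESeq2 and voom each called 6. Of all genes, 559 passed in the fit reported, 1943 in DESeq2, 2590 in voom, 347 with no filter, 56 at 0.01, and from 111 (without mouse 7) to 1998 (without mouse 4) with each mouse left out. The cause was not tested. Of the wider target list, 6 genes passed in the fit reported, 16 in DESeq2, 17 in voom and 13 without mouse 4. The fit without the replicate block for mouse called 5 of the 9 genes (Bax in addition), 13 of the wider list and 1100 of all genes. The log2 fold change of Trp53 changed sign, to 0.0035 without the block, 0.0083 with RLE, 0.0085 in DESeq2 and 0.0019 to 0.0651 without mouse 1, 3, 5 or 6, and that of Bcl2 to 0.0526 without mouse 2. With each mouse left out, Trp53 ran from -0.1307 (without mouse 4) to 0.0651 and Bcl2 from -0.1791 (without mouse 4) to 0.0526. Cdkn2a, Hrk, Fasl and other genes near 0 counts did not pass the filter and were not tested.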
